A study of Mus musculus with 20 samples.

Results

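Gene expression in adult mouse retina was set against that in newborn mouse cortex on the 10 arrays that the first of 2 laboratories ran, out of 20 arrays in the series. These 10 arrays were taken by their titles, which carry no mark of site 2. Of them 5 carried RNA of adult retina from C57/B6 mice and 5 carried RNA of cortex from Swiss-Webster mice at postnatal day 1. Each tissue was a single RNA pool, aliquoted for the arrays, and no treatment or genetic change is named in the labels. The 5 arrays of a tissue are therefore technical replicates, and a p-value here measures the spread between arrays and not between animals. Tissue, strain and age changed together, so what belongs to each cannot be told apart. The design text gives the purpose of the replicates as a measure of variation within and between sites. The platform was the GE Healthcare (Amersham) CodeLink array, on which biotin-labelled RNA of 1 sample is hybridised to 1 array. Site 2 arrays of the same 2 pools entered the fit, so every SE and p rests on the spread within all 4 groups. Where the first-site cortex arrays spread more than the other groups, an SE understates that spread. The site 2 arrays also entered the probe filter and the choice of 1 probe per gene. Otherwise they are used here only to show where the first site differs.

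The adult retina is a finished sensory tissue. Rods make up most of its cells, and in them rhodopsin activates the G protein transducin, which activates a phosphodiesterase that lowers cyclic GMP and closes a cation channel. Bipolar, amacrine, horizontal and ganglion cells carry the signal on, and Müller glia span the layers. The newborn cortex is still being built: neurons migrate, extend axons and form their first synapses, while progenitors near the ventricle go on dividing and gliogenesis begins. In both samples bulk RNA was measured, so fewer cells of a type and less RNA per cell cannot be told apart.

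Each array gave 1 intensity for each of 10500 probes, on a linear scale without a unit on which the median probe of an array lay between 0.929 and 0.944. Of these probes 10339 could be tested in limma. A probe was called when the Benjamini-Hochberg adjusted p in limma was under 0.05 and the difference at least 2-fold. By that rule 24.9% of probes were called, 1229 (11.9%) higher in retina and 1345 (13.0%) higher in cortex. Counted as genes, with the probe of highest mean intensity standing for its gene, 1101 of 9084 (12.1%) were higher in retina and 1247 (13.7%) higher in cortex, and these shares are the background for every gene list below. The median log2 difference (retina minus cortex) over all genes was -0.05. Arrays of a tissue spread little: the median SD of a probe over 5 arrays was 0.16 log2 in retina and 0.17 in cortex, rising to 0.36 and 0.37 for probes under an intensity of 0.25. Levels are compared within a probe and not between genes. All folds are ratios of geometric means over 5 arrays, and SE and SD are on the log2 scale.

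The tissue labels were checked against marker genes. All 10 measured retina markers were called higher in retina, with a median log2 difference of 5.402. Of 11 measured cortex markers 9 were called higher in cortex, with a median of -3.58. Mef2c, a transcription factor of maturing neurons, differed by 0.19 and was not called. Cux1, a factor of upper-layer cortical neurons, was called higher in retina (1.27 (SE 0.34)), but Cux1 read 0.913, 0.252, 0.159, 0.201 and 0.254 on the retina arrays and 0.108, 0.102, 0.202, 0.125 and 0.0831 on the cortex arrays. The groups overlapped, and without retina replicate 1 the Cux1 difference was 0.85 and no longer called. Every other marker that was called lay on the side its label gives.

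The 5 cortex arrays differed among themselves in many photoreceptor genes that were bright in retina. Gnat1 read 118, 96.6, 98.01, 107 and 121 on the retina arrays and 1.796, 5.24, 4.56, 3.44 and 0.905 on the cortex arrays, Gnat1 being the alpha subunit of rod transducin. The cortex readings of Gnat1 came to 1.67, 4.86, 4.23, 3.19 and 0.840 percent of its retina mean. Replicates 2 and 3 were high, 4 lay between and 5 was lowest. The retina arrays of Gnat1 ranked the opposite way within a narrow range, replicate 5 being highest and 2 lowest, and all lay above the cortex arrays. Other photoreceptor genes followed the same order. Sag, rod arrestin, read 0.906, 2.37, 2.12, 1.4995 and 0.462 on the cortex arrays, Rp1, which binds microtubules in outer segments, 0.364, 0.994, 0.913, 0.669 and 0.160, and Guca1a, which activates guanylate cyclase in photoreceptors, 0.594, 1.702, 1.52, 1.15 and 0.365.

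This was counted over the 50 genes whose retina mean was at least 16 and whose difference was at least 8-fold, a set and boundary chosen after the values were seen. In 14 of the 50 the SD over the cortex arrays was 0.5 log2 or more, from 0.54 to 1.51, and these were Gnat1, Sag, Mgarp, Guca1a, Prph2, Rp1, Ptpn14, Tulp1, Pde6b, Rom1, Fabp12, Gnat2, Opn1mw and Reep6. All 14 were highest on cortex replicate 2 or 3 and lowest on replicate 5. The other 36 had a median SD of 0.13 (range 0.03 to 0.48), but 27 of them were also highest on replicate 2 or 3, and 9 of these, among them Neurod4, Gnb3 and Susd3, were lowest on 5. Rcvrn, recoverin, a calcium sensor of photoreceptors, was among those 36 and read 1.31, 1.64, 1.58, 1.47 and 1.44 in cortex, and Pcp2, a bipolar cell gene, read 0.849, 0.879, 0.970, 0.742 and 0.677. On the site 2 cortex arrays Gnat1 read 0.0954 to 0.203 and Sag 0.178 to 0.239, below each first-site cortex array. This held for 7 of the 14. In the other 7 a site 2 cortex array reached the first-site range, and in 3 it passed the highest first-site reading: Guca1a read up to 3.07 there, Pde6b up to 2.72 and Gnat2 up to 1.47. In the other direction, the 14 genes with a cortex mean of at least 16 that were at least 8-fold higher in cortex had SDs of 0.02 to 0.29 over the retina arrays. The source of the cortex readings was not tested. For these 14 genes, differences named below are given with all 5 cortex arrays and, as an alternative chosen after seeing the data, with cortex replicates 1 and 5 alone.

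**Figure D1:**
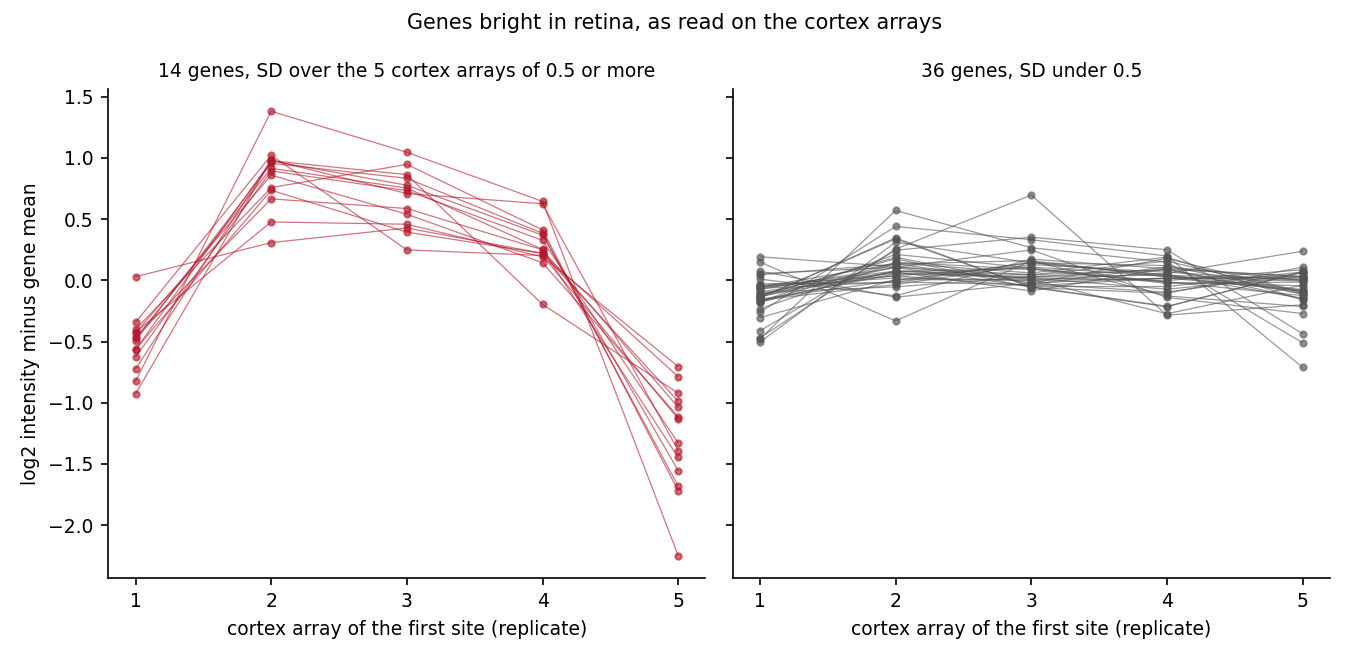
Log2 intensity on each of the 5 first-site cortex arrays (horizontal axis, by replicate number, with no order in time) minus the mean of that gene over those arrays, for 50 genes bright in retina. Each line joins the 5 readings of 1 gene. The 14 genes on the left, with an SD of 0.5 or more, all peak on replicate 2 or 3 and are lowest on replicate 5. The 36 genes on the right have a median SD of 0.13.

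The largest differences among genes with a mean intensity of at least 1 in the dimmer tissue included those of photoreceptors and of other retinal cells. Sag read 121, 98.1, 69.8, 94.7 and 87.3 on the retina arrays and 0.906, 2.37, 2.12, 1.4995 and 0.462 on the cortex arrays. This was a 73.7-fold difference (log2 6.203 (SE 0.31)), or 143-fold with cortex replicates 1 and 5. Mgarp, a mitochondrial protein of photoreceptors and other cells with high energy use, averaged 74.6 in retina and 1.35 in cortex, a 55.2-fold difference, or 115-fold with those 2 cortex arrays. Ptpn14, a protein tyrosine phosphatase, was 46.5-fold higher in retina (79.4-fold with those 2), and Gnat1 40.5-fold (84.5-fold). All arrays of retina lay above all arrays of cortex for each of these genes. Sag, Mgarp and Ptpn14 had a cortex mean of at least 1 only with replicates 2 to 4 counted. On replicates 1 and 5 Mgarp read 1.02 and 0.410, and Ptpn14 0.987 and 0.615.

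The remaining genes of the retina group varied less among the cortex arrays, with SDs from 0.06 for Mab21l1 to 0.20 for Gpsm2. In all of them but Gpsm2, cortex replicates 1 and 5 still read below replicates 2 to 4. Rcvrn read 59.1, 43.1, 42.1, 42.05 and 48.8 on the retina arrays and 1.31, 1.64, 1.58, 1.47 and 1.44 on the cortex arrays, a 31.4-fold difference (log2 4.97 (SE 0.13)). Cartpt read 46.2, 42.3, 38.2, 42.1 and 40.6 on the retina arrays and 0.899, 1.07, 1.05, 1.13 and 0.947 on the cortex arrays. Cartpt encodes the CART peptide, which amacrine and ganglion cells make, and its groups stood 41.1-fold apart with little spread in either. The cortex mean of Cartpt, too, was at least 1 only with replicates 2 to 4 counted. Laptm4b, a lysosomal membrane protein, was 26.6-fold higher (4.73 (SE 0.11)). Gpsm2, a regulator of G protein alpha subunits and of spindle orientation, was 19.9-fold higher and Mab21l1, a gene of eye development, 19.5-fold. Car2, the carbonic anhydrase of Müller glia, averaged 47.02 in retina and 2.94 in cortex and was 16.01-fold higher. With cortex replicates 1 and 5 alone Rcvrn stood at 5.08, Cartpt at 5.502 and Car2 at 4.13 log2.

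Towards cortex, the largest differences above the same minimum included those of immature neurons and glia. Fabp7 read 2.7005, 2.18, 2.58, 3.02 and 3.11 on the retina arrays and 67.1, 65.1, 65.8, 72.8 and 104 on the cortex arrays. Fabp7, which binds fatty acids in radial glia, was 27.3-fold higher in cortex (log2 -4.77 (SE 0.12)), and cortex replicate 5 stood above the other cortex arrays. Cd24a read 2.53, 2.47, 2.12, 2.61 and 2.32 on the retina arrays and 44.3, 51.6, 52.3, 52.002 and 53.97 on the cortex arrays. Cd24a, a surface glycoprotein of newborn neurons, was 21.1-fold higher. Nnat, neuronatin, an imprinted membrane protein of the developing brain, averaged 1.47 in retina and 29.03 in cortex (-4.31 (SE 0.12)). Rac3, a small GTPase of neurite growth, averaged 2.003 in retina and 32.5 in cortex (-4.02 (SE 0.10)), and Dpysl5, a collapsin response protein of growing axons, 1.903 in retina and 22.3 in cortex (-3.55 (SE 0.12)).

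The other genes of this group lay between 10.4-fold and 14.3-fold. Nkain1, a partner of the sodium pump, was 14.3-fold higher in cortex and Sst, the inhibitory peptide somatostatin of interneurons, 13.5-fold. Dok4, an adaptor of receptor tyrosine kinases, was 10.8-fold higher, Carhsp1, an RNA-binding protein, 10.6-fold and Tspan6, a tetraspanin, 10.4-fold. In each of these 10 genes every cortex array lay above every retina array. The adjusted p in limma was 7.2e-11 for Gnat1 and smaller for each of the other 19 genes on the 2 lists of largest differences. Genes nearly absent from one tissue gave still larger ratios, which rest on readings near the bottom of the scale: Gnat2, cone transducin, read 28.5, 24.7, 23.9, 26.3 and 24.9 in retina and 0.0592, 0.223, 0.184, 0.174 and 0.0430 in cortex (log2 7.83, or 8.99 with cortex replicates 1 and 5), and Gh, growth hormone, 0.0588, 0.0597, 0.0646, 0.0736 and 0.0470 in retina and 11.8, 10.5, 11.4, 12.3 and 10.9 in cortex. The 5th percentile of all intensities was 0.0445.

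**Figure D2:**
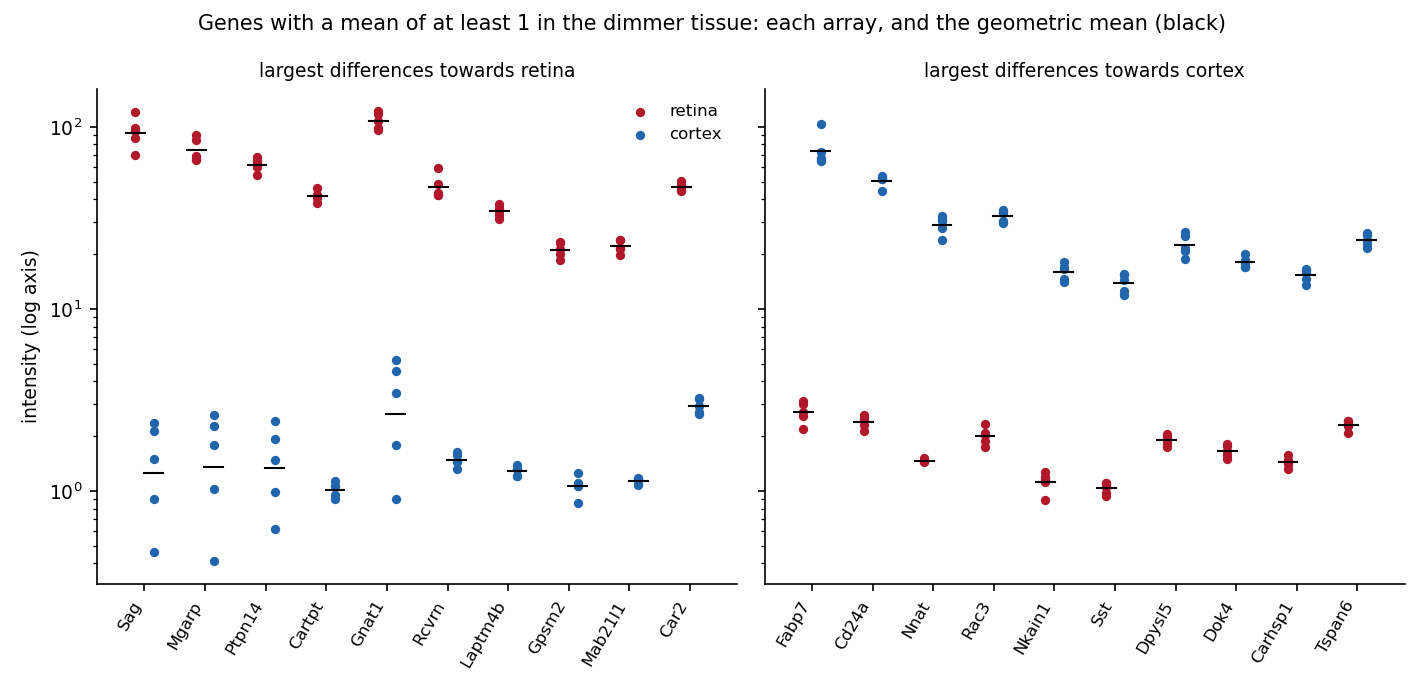
Intensity (log axis) on each of the 5 retina arrays (red) and 5 cortex arrays (blue), with the geometric mean as a black bar, for the 10 genes with the largest differences in each direction whose dimmer tissue averaged at least 1. No gene has overlapping groups, and the cortex points of Sag, Mgarp, Ptpn14 and Gnat1 are the most widely spread.

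Over all 9084 genes the differences were spread over a wide range of sizes. By probe, 790 of the calls towards retina and 879 of those towards cortex lay between 2-fold and 4-fold, while 25 and 5 exceeded 64-fold (log2 over 6). Among genes whose dimmer tissue averaged at least 1, 394 were higher in retina and 368 higher in cortex. The share called was 20.5% of probes whose brighter tissue averaged under 1, 28.8% of those between 1 and 4, 29.3% of those between 4 and 16 and 26.2% of those over 16. Groups did not overlap in 53.3% of all probes tested (retina above in 26.2%, cortex above in 27.1%). Of the 2574 called probes 2520 did not overlap.

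**Figure D3:**
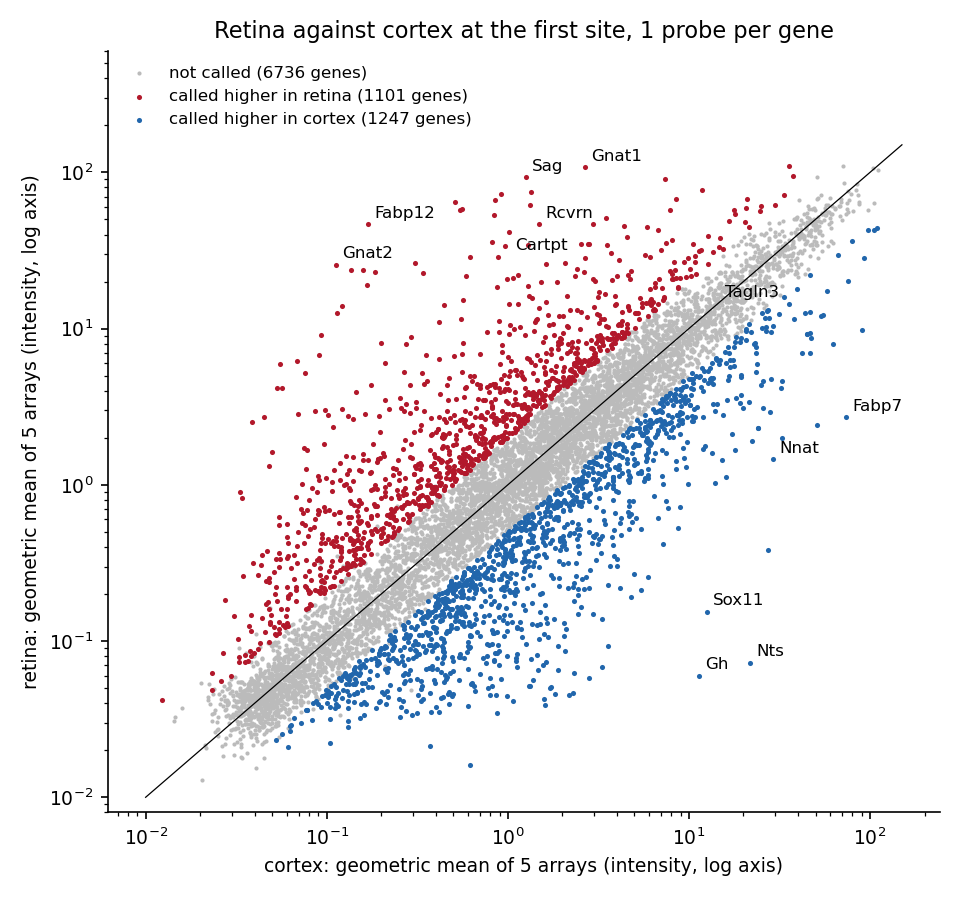
Geometric mean intensity of the 5 retina arrays (vertical) against that of the 5 cortex arrays (horizontal), both on log axes, for 9084 tested genes. Red points are the 1101 genes called higher in retina, blue the 1247 called higher in cortex, grey the rest, and the line marks equal intensity.

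Promoters are printed for 4 of the genes at least 16-fold higher in retina, because the letters TAATCC, a core of the site bound by the photoreceptor homeobox factors CRX and OTX2, were more frequent in such promoters than in those of all tested genes. Candidates were genes with exactly 1 promoter in the table used, which holds none for Gnat1, Rp1 and Fabp12. Genes of 1 chromosome were set aside. Of the rest, the 4 are those with the largest differences that hold the letters in the last 150 bases before the start. Sequences are from RefSeq (GRCm38.p6), read 5′ to 3′ on the strand of the gene, and end 1 base before the annotated start. Capitals mark TAATCC or, for a match on the opposite strand, its reverse complement. Gnat2 lies on the plus strand at chr3:108092916-108093065, Guca1a on the minus strand at chr17:47400607-47400756, Sag on the plus strand at chr1:87803530-87803679 and Rpgrip1 on the plus strand at chr14:52110753-52110902.
Gnat2: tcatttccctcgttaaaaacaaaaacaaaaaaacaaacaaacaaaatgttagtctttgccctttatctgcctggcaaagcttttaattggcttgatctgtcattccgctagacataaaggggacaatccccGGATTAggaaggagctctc
Guca1a: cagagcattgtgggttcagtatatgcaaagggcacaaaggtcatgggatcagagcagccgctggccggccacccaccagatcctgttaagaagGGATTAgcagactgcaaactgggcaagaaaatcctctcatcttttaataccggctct
Sag: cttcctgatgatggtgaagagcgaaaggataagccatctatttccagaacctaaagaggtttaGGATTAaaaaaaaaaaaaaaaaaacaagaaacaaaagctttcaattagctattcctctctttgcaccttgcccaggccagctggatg
Rpgrip1: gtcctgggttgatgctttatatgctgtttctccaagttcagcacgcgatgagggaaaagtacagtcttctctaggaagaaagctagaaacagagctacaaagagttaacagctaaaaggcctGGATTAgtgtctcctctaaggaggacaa

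Rpgrip1, which encodes a protein of the photoreceptor cilium, was 26.3-fold higher in retina. For 5765 of the 9084 genes RefSeq gave exactly 1 promoter, and the 250 bases before the start were searched on both strands for 8 motifs. TAATCC was in 11 of 44 promoters of genes at least 16-fold higher in retina. It was in 43 of 671 promoters of all genes called higher in retina (6.41%), in 25 of 753 of those called higher in cortex (3.32%) and in 307 of 5765 in all (5.33%). Within 100 bases of the start it was in 8 of the same 44 (18.2%) and in 1.89% of all. TGCTGA, a core of the NRL site, was in 10 of the 44 (22.7%) against 13.7% of all, and CAGATG, an E-box of the NeuroD type, in 8 (18.2%) against 10.9%. The letters TATAAA, known as the TATA box, were in 8 of the 44 (18.2%) against 9.21%. The SOX site, searched as ACAAAG, was in 10 (22.7%) against 13.6%. GGGCGG, a GC box, was in 38.6% against 54.6%. CCAAT was in 16 of the 44 (36.4%) against 36.4% of all, and in 16 of 30 promoters of genes at least 16-fold higher in cortex (53.3%). TTGGCGC, an E2F site, was in 0 of the 44 and 3 of the 30 against 3.50% of all, and its first 4 letters can be shared with a CCAAT match on the opposite strand. The genes were chosen by size of difference, so these shares are a description, and a match of letters is not a bound site.

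Signalling through G proteins showed large differences in both directions. Of 63 tested G protein subunits, RGS proteins, cyclases and phosphodiesterases 17 were higher in retina and 14 higher in cortex (median 0.19). The 5 beta subunits, which pair with gamma subunits to anchor and release the alpha subunit, divided. Gnb3 read 20.95, 24.4, 26.6, 24.2 and 22.1 on the retina arrays and 0.114, 0.235, 0.190, 0.175 and 0.111 on the cortex arrays, Gnb3 being the beta subunit of cones and ON bipolar cells. Gnb1, the beta subunit of rods, averaged 57.1 in retina and 7.83 in cortex (2.87 (SE 0.09)), and Gnb5, which pairs with RGS9 to end the light response, 45.4 in retina and 4.39 in cortex (3.37 (SE 0.10)). Gnb4 read 0.274, 0.355, 0.392, 0.387 and 0.289 on the retina arrays and 4.18, 3.59, 3.796, 4.29 and 4.14 on the cortex arrays. Gnb4 was thus 11.9-fold higher in cortex, Gnb2 3.48-fold and Gng12, a gamma subunit, 7.502-fold, while Gna11, an alpha subunit of the Gq class, differed by -0.15 and was not called. Pde6g, the inhibitory subunit of the rod phosphodiesterase, was 2.91-fold higher in retina, and its probe read 15.6, 15.98, 18.4, 16.9 and 16.7 on the cortex arrays.

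The outer segment of photoreceptors is a modified cilium, and genes of the cilium and of intraflagellar transport formed 1 list. Of 35 tested genes 9 were higher in retina and 3 higher in cortex, and 21 had a 95% interval of the difference within 2-fold. Rp1 averaged 64.9 in retina and 0.512 in cortex (6.99 (SE 0.39), 8.07 with cortex replicates 1 and 5), and Tulp1, which carries proteins to the outer segment, 58.6 in retina and 0.559 in cortex (6.71 (SE 0.21), 7.39). Rpgr, the retinitis pigmentosa GTPase regulator of the connecting cilium, went the other way: Rpgr read 1.29, 1.22, 1.31, 1.27 and 1.201 on the retina arrays and 4.07, 3.78, 4.02, 4.16 and 4.29 on the cortex arrays, a 3.23-fold difference towards cortex. Its partner Rpgrip1 was higher in retina, as given above. Kif3c, a kinesin of neurons, was 2.59-fold higher in cortex, and Kif17 differed by -0.05.

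Ion channels were called in both directions. Of 52 potassium channel genes 10 were higher in retina and 6 higher in cortex, with a median of 0.10. Kcna5, a voltage-gated channel, averaged 18.6 in retina and 1.298 in cortex (3.84 (SE 0.10)), and Kcnab2, a channel beta subunit, 3.09 in retina and 0.313 in cortex (3.303 (SE 0.19)). Kcnq5, a subunit of the M current, was 11.1-fold higher in cortex and Kcnj4, an inward rectifier, 4.79-fold, and the Kcnj4 call was lost when a floor was set at the 25th percentile of intensities. Of 20 sodium, HCN and calcium channel genes 5 were higher in retina and 4 higher in cortex. Cacna1f, the calcium channel of photoreceptor and bipolar terminals, averaged 7.51 in retina and 2.398 in cortex (1.65 (SE 0.10)). Cacnb2, the beta subunit of photoreceptor calcium channels, was 10.9-fold higher in retina. Cacna1c, the L-type channel of brain and heart, was 9.87-fold higher in cortex. Cacnb1, another beta subunit, read 0.0451, 0.0408, 0.0945, 0.105 and 0.0694 in retina and 0.477, 0.259, 0.393 and 0.429 in the 4 cortex arrays that gave a value, and its call was lost at this floor. Hcn2, a channel of rhythmic neurons, was 2.24-fold higher in cortex at readings of 0.137 and 0.0613, a call lost without retina replicate 4 and at that floor.

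Few pumps and ion exchangers were called: 3 of 42 were higher in retina, 1 was higher in cortex, and 32 had an interval within 2-fold. Slc12a5 read 2.27, 2.95, 3.24, 2.76 and 2.47 on the retina arrays and 0.694, 0.771, 0.719, 0.663 and 0.760 on the cortex arrays. Slc12a5 encodes KCC2, the chloride exporter that mature neurons use for inhibition, and was 3.77-fold higher in retina. Slc12a2, the chloride importer of immature neurons, averaged 2.32 in retina and 2.69 in cortex (-0.22 (SE 0.13)) with overlapping groups. Atp2c1, a calcium and manganese pump of the Golgi, was 2.91-fold higher in retina. The cortex call was Atp1a4, a sodium pump subunit of sperm, at readings of 0.0453 in retina and 0.133 in cortex, and it was lost at the 25th percentile floor. Without cortex replicate 3 or retina replicate 3 the pumps and exchangers higher in cortex numbered 2.

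Synaptic genes did not follow tissue as a whole. Of 63 genes of vesicles and exocytosis 12 were higher in retina and 10 higher in cortex, and 33 had an interval within 2-fold. The syntaxins of the plasma membrane, which dock vesicles, divided into pairs. Stx3 read 8.19, 9.21, 9.55, 8.88 and 8.52 on the retina arrays and 0.279, 0.273, 0.321, 0.239 and 0.372 on the cortex arrays. Stx3, the syntaxin of ribbon synapses, was 30.2-fold higher in retina and Stx4a, a syntaxin of many tissues, 2.98-fold. Stx1a read 0.260, 0.251, 0.276, 0.293 and 0.223 on the retina arrays and 2.63, 2.05, 2.37, 2.36 and 2.53 on the cortex arrays. Stx1a, the syntaxin of conventional synapses, was 9.18-fold higher in cortex. Stx2 was 2.14-fold higher there (adjusted p in limma 0.026), a call lost without retina replicate 5, after quantile normalization and with cortex replicates 1 and 5 alone. Vamp8, a SNARE of endosomes and secretory granules, was 6.58-fold higher in retina, Vamp1 2.198-fold, and Vamp2, the main synaptobrevin of brain, 1.45-fold, short of the call. Rab3b, a small GTPase of vesicles, was 8.29-fold higher in cortex.

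Transmitter genes leaned towards retina at the first site, with 9 of 23 higher there and 4 higher in cortex (median 0.24). On the site 2 arrays the lean was slight, with 7 called higher in retina and 6 higher in cortex. Slc6a6 read 8.98, 3.02, 2.59, 2.395 and 2.71 on the retina arrays and 0.311, 0.262, 0.413, 0.318 and 0.265 on the cortex arrays, where Slc6a6 is the taurine transporter. Retina replicate 1 stood well above the other retina arrays, and without it the difference was 3.11 in place of 3.46, still called. Slc1a2, the glutamate transporter GLT-1, averaged 1.07 in retina and 0.118 in cortex (3.19 (SE 0.23)). Slc1a4, a neutral amino acid transporter, averaged 1.31 in retina and 9.67 in cortex (-2.88 (SE 0.07)), and Slc6a4, the serotonin transporter, was 4.47-fold higher in cortex. Receptors leaned the other way: of 25 receptor genes for glutamate, GABA and glycine 4 were higher in retina and 7 higher in cortex (median -0.49). Gabrr1 read 12.4, 10.4, 11.3, 11.2 and 10.4 on the retina arrays and 0.786, 0.802, 0.909, 0.978 and 1.01 on the cortex arrays, Gabrr1 being the GABA-C receptor subunit of bipolar cells. Grm8, a presynaptic glutamate receptor, was 4.62-fold higher in retina. The remaining calls towards retina were Grik1, a kainate receptor subunit, and Grina, whose name matches the NMDA receptor genes but whose protein is not a subunit of that channel, both chosen after their values were seen. Gria2 and Gria4, AMPA receptor subunits, were 3.13-fold and 2.48-fold higher in cortex, while Gria1 and Gria3 differed by -0.60 and -0.49 and were not called. Grm3, a glutamate receptor of astrocytes and neurons, was 7.56-fold higher in cortex and Gabrb1 3.297-fold. Gabra2 stood just past the boundary (-1.002 (SE 0.12)) and fell under it in several alternatives, and Gabra3 differed by -0.23.

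Energy metabolism differed by enzyme and isoform. Of 34 genes of the tricarboxylic acid cycle and pyruvate metabolism 6 were higher in retina and 3 higher in cortex. The leading retina genes were lactate transporters: Slc16a3, which exports lactate from glycolytic cells, averaged 2.19 in retina and 0.305 in cortex (2.85 (SE 0.14)) and Slc16a1 17.2 in retina and 3.2004 in cortex (2.42 (SE 0.11)), whereas Slc16a7, a lactate importer of neurons, was 2.25-fold higher in cortex. Ldha read 68.3, 55.8, 48.97, 56.4 and 55.8 on the retina arrays and 21.3, 24.7, 23.5, 26.3 and 28.3 on the cortex arrays, Ldha being the lactate dehydrogenase subunit that favours lactate. Ldhb, the other subunit, was 1.51-fold higher in retina and not called. Idh1, the cytosolic isocitrate dehydrogenase, was 3.32-fold higher in cortex. Hexokinase, enolase and aldolase, each measured by 2 isoforms, were called higher in retina in all 6 cases, with Hk2 at 5.04 and Hk1 at 1.498, Eno2 at 2.46 and Eno3 at 1.67, and Aldoa at 3.02 and Aldoc at 1.71 log2. Of 24 genes of creatine, adenylate and glycogen stores and glucose uptake 7 were higher in retina and 4 higher in cortex. Slc2a1, the glucose transporter of endothelium and photoreceptors, was 4.92-fold higher in retina, and Ak4, a mitochondrial adenylate kinase, 4.62-fold. Slc2a3, the neuronal glucose transporter, was 2.18-fold higher in retina, a call lost with cortex replicates 1 and 5 alone (0.96). Gatm read 0.0528, 0.0933, 0.0668, 0.0508 and 0.131 on the retina arrays and 1.66, 1.598, 1.52, 1.67 and 1.73 on the cortex arrays. Gatm, which makes the creatine precursor, was 22.1-fold higher in cortex.

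Fatty acid binding proteins, which carry lipids in the cytosol, divided by member. Fabp12 of retina averaged 46.5 in retina and 0.169 in cortex (8.099 (SE 0.52), 9.64 with cortex replicates 1 and 5), and Fabp4, the adipocyte and macrophage form, 1.11 in retina and 0.0985 in cortex (3.495 (SE 0.14)). Fabp3, the heart form, averaged 7.92 in retina and 22.8 in cortex (-1.53 (SE 0.07)), and Fabp5, a form of skin and immature neurons, 11.999 in retina and 53.9 in cortex (-2.17 (SE 0.10)). With Fabp7, 3 members were thus higher in cortex and 2 higher in retina. In the wider list of fatty acid and lipid transport genes 12 of 60 were higher in retina and 14 higher in cortex. Abca4, the retinoid flippase of the outer segment, was 19.7-fold higher in retina and Acsbg1, an acyl-CoA synthetase of brain, 19.1-fold higher in cortex. Of 14 genes of cholesterol synthesis 2 were higher in retina and 5 higher in cortex (median -0.78), with Tm7sf2 3.19-fold and Sqle, squalene epoxidase, 2.96-fold higher in cortex. Srebf1, a regulator of lipid synthesis, was 3.75-fold higher in retina, a call lost at the 25th percentile floor, and Ebp, a sterol isomerase, 2.21-fold. On the site 2 arrays 0 of these 14 genes were called higher in retina and 5 higher in cortex.

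**Figure D4:**
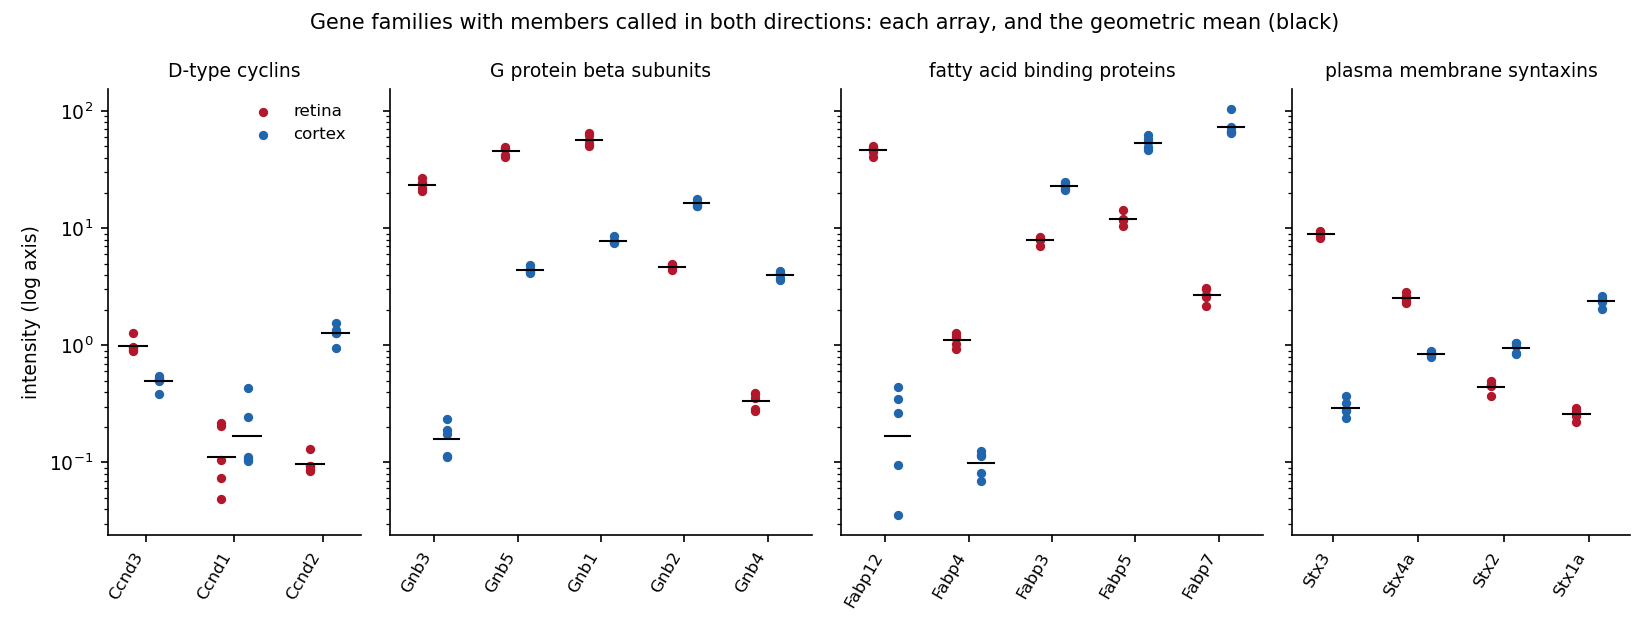
Intensity (log axis) on each of the 5 retina arrays (red) and 5 cortex arrays (blue), with the geometric mean as a black bar, for the 4 of 27 measured gene families that had members called in both directions. The fatty acid binding proteins divide into 2 members higher in retina and 3 higher in cortex, the G protein beta subunits into 3 and 2, the syntaxins into 2 and 2 and the D-type cyclins into 1 and 1, with Ccnd1 overlapping.

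Of 62 antioxidant, metal and glutathione genes 9 (14.5%) were higher in each tissue, near the shares of all tested genes (12.1% and 13.7%). On the site 2 arrays 8 of the 62 were called higher in retina and 12 higher in cortex. Cp, the iron oxidase ceruloplasmin, and Trf, transferrin, were 9.297-fold and 8.87-fold higher in retina. Gpx7, a peroxidase of the endoplasmic reticulum, and Txnip, an inhibitor of thioredoxin, were 6.06-fold and 5.94-fold higher in cortex.

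Circadian clock genes leaned most strongly towards retina of the pathway lists examined: 11 of 19 were higher in retina and 2 higher in cortex, with a median of 1.03 against -0.05 for all genes. Dbp read 43.8, 34.5, 29.4, 34.5 and 33.8 on the retina arrays and 2.69, 2.84, 2.68, 2.798 and 2.82 on the cortex arrays. Dbp, a clock output factor, was 12.6-fold higher, and Rora, a nuclear receptor that activates Arntl, 11.6-fold. The others higher in retina, chosen after their values were seen, were Per3 (3.15), Nr1d2 (3.08), Arntl (1.56), Opn4 (1.55), Clock (1.47), Cry1 (1.31), Bhlhe41 (1.26), Bhlhe40 (1.03) and Per2 (1.02). Both activators and repressors of the loop were among them. Csnk1e, a kinase that acts on PER proteins, was 2.88-fold higher in cortex, and Npas2, a relative of Clock, 2.699-fold at readings of 0.143 and 0.0531, a call lost at the 25th percentile floor. At site 2 7 of the 19 were called higher in retina. The hour at which tissue was taken is not given in the labels. Immediate early genes, which respond within minutes to activity or handling, were called in both directions, 8 of 32 higher in retina and 6 higher in cortex. Fos read 2.57, 2.79, 2.77, 2.804 and 2.42 on the retina arrays and 0.408, 0.266, 0.389, 0.442 and 0.407 on the cortex arrays. Fos was 7.08-fold higher in retina and Btg2, an antiproliferative gene of the same response, 7.198-fold. Egr2 was 13.7-fold higher in cortex and Klf6 2.88-fold.

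Cytoskeletal genes were called more often towards cortex. Of 32 tubulins, microtubule proteins and intermediate filaments 14 were higher in cortex and 4 higher in retina, 14 were not called, and the median was -0.83. All 4 stathmins, which bind free tubulin, were higher in cortex: Stmn1 at -1.903, Stmn2 at -2.96, Stmn3 at -1.09 and Stmn4 at -2.74 log2. The 4 measured beta-tubulins were too, with -1.32 for Tubb2b, -1.62 for Tubb4a, -1.18 for Tubb5 and -1.49 for Tubb6. Gap43 read 10.8, 9.397, 8.74, 9.87 and 9.996 on the retina arrays and 85.9, 87.4, 99.3, 84.4 and 93.01 on the cortex arrays. Gap43, a growth cone protein, was 9.23-fold higher. Neurofilaments, which fill mature axons, ran the other way. Nefh, the heavy subunit, was 11.8-fold higher in retina, Nefl, the light subunit, 2.19-fold, and Nefm, the medium one, 1.64-fold, short of the call. Ina, which precedes them in development, differed by -0.29, and Vim, vimentin, by 0.11. Map4, a microtubule protein of non-neuronal cells, was 2.46-fold higher in retina.

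Axon guidance genes were called higher in cortex in 21 of 52 cases and higher in retina in 3 (median -0.38). Robo1 read 0.227, 0.166, 0.189, 0.309 and 0.232 on the retina arrays and 2.16, 2.63, 2.15, 1.62 and 2.36 on the cortex arrays. Robo1, a receptor for Slit ligands, was 9.83-fold higher in cortex and Plxnd1, a semaphorin receptor, 7.18-fold. Slit2, a ligand of Robo1, was 3.28-fold higher in retina (1.71 (SE 0.09)) and Sema3f, a repellent semaphorin, 4.87-fold. The third retina call was the ephrin receptor Epha3 (1.37), named after its value was seen. Sema4g, a transmembrane semaphorin, averaged 54.7 in retina and 54.4 in cortex and differed by 0.01.

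Cell adhesion genes leaned the same way, with 17 of 58 higher in cortex and 3 higher in retina. Chl1, an L1 relative of migrating neurons, was 25.8-fold higher in cortex at 1.33 against 0.0516, and Igsf3 was 9.24-fold higher. Thy1, a surface protein of ganglion cells and mature neurons, was 3.76-fold higher in retina and Cntn4, a contactin, 3.31-fold. In the extracellular matrix, one of the longest lists, calls towards cortex outnumbered the others, 32 of 87 higher in cortex and 4 higher in retina (median -0.64). Lum and Dcn, proteoglycans of meninges and connective tissue, were 25.2-fold and 19.02-fold higher in cortex. Col4a3 read 0.596, 0.547, 0.517, 0.612 and 0.520 on the retina arrays and 0.0480, 0.0752, 0.0332, 0.0479 and 0.0834 on the cortex arrays. Col4a3, a basement membrane collagen, was 10.2-fold higher in retina and Adamts5, an aggrecanase, 5.97-fold.

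**Figure D5:**
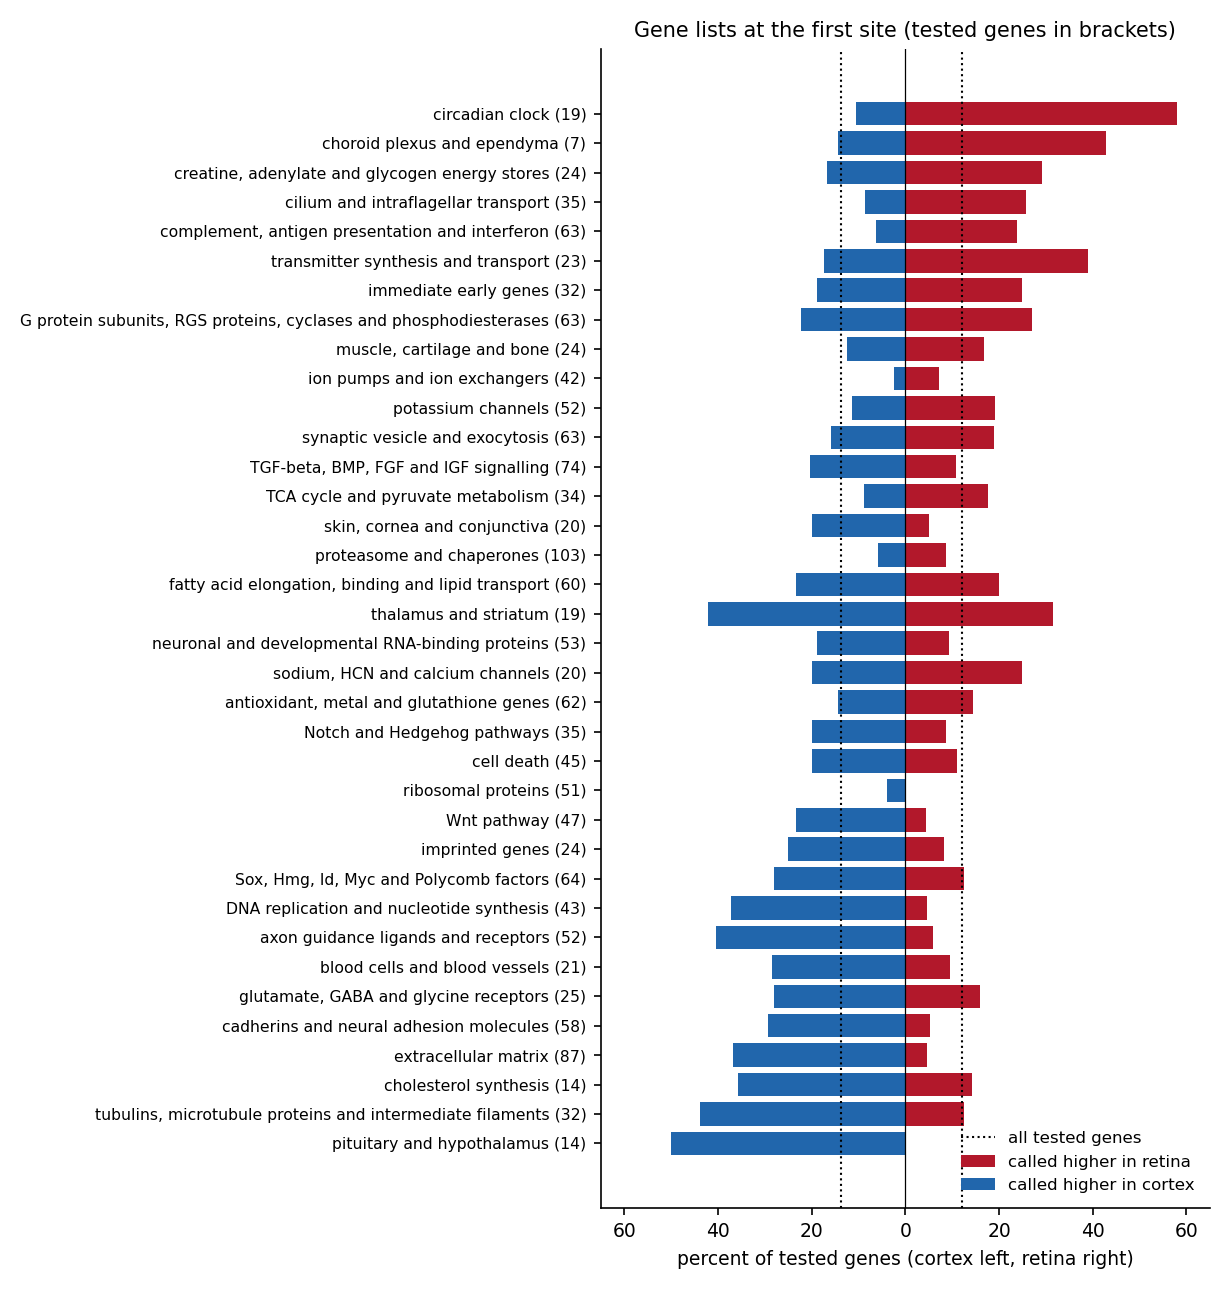
Percent of the tested genes of each list that were called higher in cortex (blue, to the left) or higher in retina (red, to the right) at the first site, with the number tested in brackets and lists sorted by their median difference. Dotted lines mark 13.7% and 12.1%, the shares among all tested genes. Marker lists for the tissue labels are not drawn, and of the lists drawn the clock list extends farthest towards retina and the pituitary list farthest towards cortex.

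In developmental signalling pathways most genes were not called, as among all tested genes, of which 12.1% were higher in retina and 13.7% higher in cortex. Of 47 Wnt pathway genes 11 were higher in cortex and 2 higher in retina, and 34 were not called. Tcf7l2 read 0.0627, 0.0645, 0.0567, 0.101 and 0.0722 on the retina arrays and 1.67, 1.196, 1.78, 1.66 and 1.62 on the cortex arrays. Tcf7l2, a nuclear effector of Wnt and a marker of thalamus, was 22.5-fold higher in cortex, and Dkkl1, a Dickkopf-like protein, 12.6-fold. Dkk3, a secreted glycoprotein of Müller glia, averaged 10.7 in retina and 1.77 in cortex (2.596 (SE 0.12)), and Wnt10a was 2.14-fold higher in retina (0.97 log2 and not called with cortex replicates 1 and 5 alone). With the 25th percentile floor 5 Wnt genes were higher in cortex, and without retina replicate 4 4 were higher in retina. Of 35 Notch and Hedgehog genes 7 were higher in cortex and 3 in retina, with 25 not called. Dlk1, an imprinted Notch ligand relative, was 25.3-fold higher in cortex and Notch4, an endothelial receptor, 3.08-fold. Shh, which ganglion cells secrete, averaged 0.292 in retina and 0.0914 in cortex and Hey2, a Notch target, 0.266 in retina and 0.0914 in cortex. The calls of Notch4, Shh and Hey2 were lost at the 25th percentile floor. Growth factor genes of the TGF-beta, BMP, FGF and IGF families had 15 of 74 higher in cortex and 8 in retina, with 51 not called and a median of 0.03. Fgf1 and Tgfb3, secreted ligands, were 9.002-fold and 4.18-fold higher in retina. Igfbp3, which binds IGF, and Fgfr3, a receptor of glial progenitors, were 11.5-fold and 10.1-fold higher in cortex.

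Some genes of dividing cells were called higher in cortex. Of 43 genes of DNA replication and nucleotide synthesis 16 were higher in cortex and 2 higher in retina, and 25 were not called. Rrm2 read 0.285, 0.304, 0.284, 0.272 and 0.271 on the retina arrays and 2.71, 2.63, 2.78, 2.82 and 3.26 on the cortex arrays. Rrm2, the S-phase subunit of ribonucleotide reductase, was 10.003-fold higher in cortex and Tk1, thymidine kinase, 12.6-fold. Rpa1, which coats single-stranded DNA, was 2.301-fold higher in retina and Orc2, of the origin recognition complex, 2.09-fold. The Orc2 call was lost without cortex replicate 4 (0.99). Without cortex replicate 5 or retina replicate 5 4 replication genes were higher in retina. Gmnn, the replication inhibitor geminin, differed by 0.01. Among D-type cyclins, which start the cell cycle, Ccnd2 was 13.2-fold higher in cortex, Ccnd1 differed by -0.60 with overlapping groups, and Ccnd3 was 2.01-fold higher in retina, a call lost without cortex replicate 2 (0.92) or retina replicate 3 (0.92).

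Of 64 Sox, Hmg, Id, Myc and Polycomb genes 18 were higher in cortex and 8 in retina. Sox11 read 0.200, 0.120, 0.153, 0.135 and 0.177 on the retina arrays and 12.6, 12.9, 12.5, 12.8 and 12.2 on the cortex arrays. Sox11 and its relative Sox4, factors of newborn neurons, were 81.6-fold and 6.05-fold higher in cortex. All 3 Myc genes were higher there, with Myc at -5.28, Mycn at -2.35 and Mycl at -1.87 log2. Of the Id proteins, inhibitors of basic helix-loop-helix factors, Id4 was called (-1.15), and Id1 (-0.82) and Id3 (-0.63) were not. Cbx8, a Polycomb subunit, was 4.13-fold higher in retina. Max, the partner of Myc, was called higher in retina (1.85 (SE 0.44)) although its groups overlapped. RNA-binding proteins had 10 of 53 higher in cortex and 5 in retina. Elavl2, a neuronal RNA stabiliser, was 4.38-fold higher in cortex, and Igf2bp3, an oncofetal protein, 4.74-fold at 0.152 against 0.0321, a call lost at the 25th percentile floor. Ptbp2, the splicing repressor of immature neurons, was 2.21-fold higher in cortex and Ptbp1, its counterpart in non-neuronal cells, differed by 0.22. Mbnl1, a splicing factor of mature tissue, and Cpeb1, a polyadenylation factor, were 3.24-fold and 2.97-fold higher in retina. Of 24 imprinted genes 6 were higher in cortex, led by Dlk1 and Nnat, and 2 higher in retina. Those were Impact, a regulator of translation (2.07 (SE 0.10)), and Mest (1.05 (SE 0.26)), whose call was lost without cortex replicate 4 (0.92) and after quantile normalization.

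Housekeeping machinery differed little. In all, 54.8% of probes had a 95% interval of the difference within 2-fold. Of 51 ribosomal protein genes this held for 47, with 0 called higher in retina and 2 in cortex, Rps20 (6.902-fold) and Rpl29 (2.09-fold). Rps27 averaged 53.96 in retina and 54.1 in cortex. Of 103 proteasome and chaperone genes 78 lay within 2-fold, 9 were higher in retina and 6 in cortex. Hspa1b, an inducible heat shock protein, was 12.8-fold higher in retina and Dnajc12, a co-chaperone, 10.6-fold. Hspb3, a small heat shock protein, and Serpinh1, the collagen chaperone, were 7.096-fold and 3.33-fold higher in cortex. Among the brightest 10 percent of genes the smallest differences were those of Serbp1, Trap1a, Rnf14, Cdc16 and Tagln3. Tagln3 read 15.3, 14.4, 13.6, 15.4 and 14.4 on the retina arrays and 14.3, 13.1, 14.999, 15.96 and 14.6 on the cortex arrays. Tagln3 encodes a neuronal calponin relative, and its groups overlapped fully.

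Innate immune genes leaned towards retina: of 63 genes of complement, antigen presentation and interferon response 15 were higher in retina and 4 in cortex. Ifit3 read 3.22, 2.96, 2.705, 3.22 and 3.22 on the retina arrays and 0.0988, 0.0932, 0.113, 0.139 and 0.180 on the cortex arrays. Ifit3, an interferon-induced gene, was 25.2-fold higher in retina and Irf7, a factor of the interferon response, 12.2-fold. Ifitm2 and Ifitm7, interferon-induced membrane proteins, were 6.22-fold and 2.75-fold higher in cortex. Genes of this list can differ between the strains, and strain and tissue cannot be told apart. One member counted as higher in retina, H2-Ke6, lies among the histocompatibility genes but encodes an enzyme of steroid and fatty acid metabolism. Cell death genes had 5 of 45 higher in retina and 9 in cortex. Xiap and Cflar, inhibitors of caspases, were 5.78-fold and 4.45-fold higher in retina. Birc5, survivin, a protein of mitosis as well as of survival, and Pmaip1, the p53 target NOXA, were 15.4-fold and 7.902-fold higher in cortex.

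Markers of other tissues were read for what the dissections might hold. Of 14 pituitary and hypothalamus genes 7 were called in the cortex direction and 0 in the other. Their intensities summed to 5.72 to 6.196 in retina and 40.04 to 46.2 in cortex. Here and below such a sum follows the brightest probes of a list and does not measure how much of a tissue was present. Gh and Avp, the precursor of vasopressin, averaged 11.4 and 2.79 in cortex, and the others called, chosen after their values were seen, were Pmch, the precursor of melanin-concentrating hormone (-4.69), Cga, the shared subunit of pituitary hormones, Hcrt, orexin (-2.89), Npy (-1.91) and Sst. Sst and Npy are also made by cortical interneurons. Of 19 thalamus and striatum genes 8 were higher in cortex and 6 in retina, summing to 96.3 to 113 in retina and 57.2 to 64.9 in cortex. Tcf7l2 and Zic1 (9.77-fold higher) led in cortex. Rora, Drd2, a dopamine receptor (5.55-fold higher), and Calb2, calretinin (4.55-fold), which led in retina, are made by retinal neurons too. Their part in the differences of other lists was not tested.

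Of 21 blood and vessel genes 6 were higher in cortex and 2 in retina, summing to 28.7 to 33.5 in retina and 62.9 to 74.9 in cortex. Cldn5, the tight junction protein of brain endothelium, and Tie1, an endothelial receptor, were 4.05-fold and 4.94-fold higher in cortex. Kdr, the main VEGF receptor, was 4.46-fold higher in retina, and Flt1, another VEGF receptor, 4.64-fold at 0.318 against 0.0686, a call lost at the 25th percentile floor. Of 7 choroid plexus and ependyma genes 3 were higher in retina and 1 in cortex, summing to 60.6 to 66.96 in retina and 56.3 to 73.9 in cortex. Otx2, a factor of photoreceptors, bipolar cells and pigment epithelium, was 21.2-fold higher in retina, and Aqp1, a water channel, 14.2-fold. Rsph1, a protein of motile cilia, was 7.79-fold higher in cortex. Of 24 muscle, cartilage and bone genes 4 were higher in retina and 3 in cortex, summing to 25.98 to 27.9 in retina and 9.71 to 10.9 in cortex. Alpl read 14.8, 16.4, 15.1, 14.98 and 14.6 on the retina arrays and 0.489, 0.661, 0.550, 0.632 and 0.523 on the cortex arrays. Alpl, tissue-nonspecific alkaline phosphatase, was 26.7-fold higher in retina, and Tnnt1, slow troponin T, 21.3-fold. Myod1, which defines muscle cells, read 0.0806 and 0.0805. Of 20 skin, cornea and conjunctiva genes 1 was higher in retina, Krt18, a keratin of simple epithelia (40.4-fold), and 4 were higher in cortex, Krt19 (4.46-fold, lost at the 25th percentile floor), Krt1 (3.44-fold), Perp (-1.47) and Dsp (-1.25), the last 2 named after their values were seen. Their summed intensity was 19.7 to 23.1 in retina and 10.7 to 12.7 in cortex, and without cortex replicate 1 or retina replicate 3 the genes of this list higher in retina numbered 2.

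The parvalbumin, calretinin and calbindin genes encode calcium-binding proteins that mark neuron classes in both tissues. All 3 were higher in retina. Pvalb read 12.6, 11.5, 10.4, 12.04 and 11.3 on the retina arrays and 0.512, 0.597, 0.601, 0.548 and 0.518 on the cortex arrays. Pvalb was 20.8-fold higher, Calb2 4.55-fold and Calb1, calbindin, 2.796-fold. Every array of retina exceeded every array of cortex for each.

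The same RNA pools at site 2 gave a retina minus cortex difference that departed from the first site in few probes. In limma 75 of 10339 probes (0.725%) were called for the difference between sites, 47 with a more positive value at the first site and 28 with a more negative one. Of the first-site calls 2052 were called in the same direction at site 2, which is 79.7% of the first-site calls and 80.7% of the 2542 called at site 2, and 0 were called in the opposite direction. The 5 genes with the largest departures below 0 were Gnat1, Mgarp, Ptpn14, Sag and Rom1, a disc membrane protein, all members of the 14 described above. Gnat1 differed by 5.34 log2 at the first site and by 10.17 at site 2, and by 6.401 at the first site with cortex replicates 1 and 5. For Sag these values were 6.203, 9.504 and 7.16, and for Rom1 6.005, 9.14 and 6.74. With cortex replicates 1 and 5 alone 30 probes in place of 75 were called for the difference between sites. That setting was chosen after seeing the data and holds fewer arrays, which can by itself lower the count. No conclusion is drawn from it.

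The 5 largest departures above 0 were of dim genes. Izumo3 read 0.353, 0.311, 0.505, 0.368 and 0.278 on the retina arrays and 0.0224, 0.0901, 0.0696, 0.113 and 0.0795 on the cortex arrays. Izumo3, of a family of sperm proteins, was 5.38-fold above cortex in retina here and stood at -0.43 log2 at site 2. Tspan1, a tetraspanin of epithelia, averaged 0.329 in retina and 0.0770 in cortex (log2 2.096, and -0.01 at site 2), and Pard6b, a polarity protein, 0.337 in retina and 0.0525 in cortex (2.68 and 0.92). Cdc25c, a mitotic phosphatase, stood at 0.49 and -1.32, and Gnaq, an alpha subunit of the Gq class, at -0.84 and -2.64. The first-site calls of Izumo3, Tspan1 and Pard6b were lost at the 25th percentile floor, and in 50 of the 75 probes a first-site tissue mean lay under 0.25.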

How the data were processed

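Per the labels' protocols, biotin labelling of each pool followed the CodeLink assay. The authors deposited 1 linear intensity per probe and array, and how they corrected background, scaled arrays and filtered spots is not given in the sources used here. Of the first-site readings 303 were blank and 87 at or below 0, and both were treated as missing. No further normalization was applied, since array medians of log2 differed by at most 0.0594. In limma 3.58.1 (R 4.3.3), 1 model with a mean for each of 4 groups was fitted to all 20 arrays (lmFit, eBayes, 16 residual degrees of freedom), for the 10339 probes with at least 3 of 5 values in every group, and the script was tested on simulated data. P-values are 2-sided and adjusted over all probes. The number of arrays limits the precision.

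Probes were named from the platform annotation (9378 with 1 symbol, 8 with several, 1114 with none). Cross-hybridisation between close relatives was not tested. Promoters came from RefSeq (GRCm38.p6): 7199 of 9084 tested genes had any and 5765 exactly 1.

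The 38 gene lists, the families and the motifs were chosen with earlier results of these data known. Genes are named by 5 parts of a rule: the 10 largest differences each way among called genes whose dimmer tissue averaged at least 1, the 2 largest called each way and the smallest difference of each list, members of families with a call, the 5 smallest differences in the brightest 10 percent, and the 5 largest departures each way between sites. Not every gene that the rule picks is printed, and for several lists the member with the smallest difference is left out. Genes outside the rule are marked in the text as chosen after their values were seen. Older names counted only where no other gene now holds them. Alternatives were quantile normalization, median centring, floors at the 5th and 25th percentile, no filter, bright probes only, first-site arrays only, a replicate block, a trended robust prior, each array left out and cortex replicates 1 and 5 alone. Tables and plots used Python 3.11.15, pandas 2.3.3, numpy 2.4.6 and matplotlib 3.10.9.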

Additional observations from a re-analysis of the deposited data

Results flagged for a closer look

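Single arrays stood apart in 33 of 514 groups of 5 readings tested (6.42%), by Dixon's gap test at its 95% critical value, where chance alone gives about 1 in 20. Retina replicates 1 and 3 gave 8 and 6 of these and cortex replicates 1 and 2 gave 6 and 7, against 0 to 2 on each of the other 6 arrays. Slc6a6, the taurine transporter, and Cux1 showed the largest gaps, both on retina replicate 1, whose mean intensity was 4.76 against 4.19 to 4.27 on the other retina arrays. Cortex replicate 1 read highest of the 5 for Csnk1e at 4.49 (3.29 to 3.55 on the others). Cortex replicate 1 read lowest of the 5 for Calb2 at 6.29 (7.15 to 7.31 on the others), Cd24a at 44.3 (51.6 to 54.0 on the others), Hbb-y at 0.13 (0.201 to 0.228 on the others), Khdrbs3 at 19.9 (23.3 to 24.5 on the others) and Myh2 at 0.148 (0.195 to 0.207 on the others). Cortex replicate 2 read highest of the 5 for Gsta2 at 0.115 (0.0322 to 0.0433 on the others). Cortex replicate 2 read lowest of the 5 for Ccnd3 at 0.385 (0.501 to 0.552 on the others), Elavl2 at 1.02 (1.64 to 1.97 on the others), Fos at 0.266 (0.389 to 0.442 on the others), Gabra3 at 1.05 (1.7 to 1.93 on the others), Ina at 2.73 (3.25 to 3.46 on the others) and Tcf7l2 at 1.2 (1.62 to 1.78 on the others). Cortex replicate 3 read highest of the 5 for Gnb1 at 8.6 (7.51 to 7.74 on the others). Cortex replicate 4 read lowest of the 5 for Mest at 1.78 (2.59 to 3.03 on the others). Cortex replicate 5 read highest of the 5 for Fabp7 at 104.0 (65.1 to 72.8 on the others). Retina replicate 1 read highest of the 5 for Cbx8 at 3.38 (2.49 to 2.7 on the others), Ccnd2 at 0.129 (0.0846 to 0.0939 on the others), Cux1 at 0.913 (0.159 to 0.254 on the others), Gna11 at 2.57 (1.24 to 1.45 on the others), Hcn3 at 1.03 (0.791 to 0.847 on the others), Hey2 at 0.335 (0.242 to 0.262 on the others), Slc6a6 at 8.98 (2.4 to 3.02 on the others) and Trap1a at 52.8 (41.9 to 43.0 on the others). Retina replicate 2 read highest of the 5 for Alpl at 16.4 (14.6 to 15.1 on the others). Retina replicate 2 read lowest of the 5 for Gpx7 at 0.315 (0.41 to 0.455 on the others). Retina replicate 3 read highest of the 5 for Aanat at 0.604 (0.293 to 0.359 on the others), Ccnd3 at 1.28 (0.892 to 0.966 on the others) and Slc16a1 at 19.8 (16.4 to 16.8 on the others). Retina replicate 3 read lowest of the 5 for Cntn4 at 0.911 (1.11 to 1.18 on the others), Dnah11 at 0.0829 (0.116 to 0.13 on the others) and Sema3f at 0.59 (0.746 to 0.79 on the others). Retina replicate 5 read lowest of the 5 for Igfbp3 at 0.0744 (0.131 to 0.15 on the others).

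The retina minus cortex difference departed between sites, by limma's contrast of the 2 differences, in 20 of the named genes. Each is given as the first-site difference less that at site 2, followed by both differences, on the log2 scale. It was below 0 for Gnat1 (-4.83, from 5.34 and 10.17), Mgarp (-3.89, from 5.79 and 9.67), Ptpn14 (-3.33, from 5.54 and 8.86), Sag (-3.3, from 6.2 and 9.5), Rom1 (-3.13, from 6.0 and 9.14), Rp1 (-2.66, from 6.99 and 9.64), Tulp1 (-1.55, from 6.71 and 8.26), Egr2 (-1.19, from -3.78 and -2.59), Pmaip1 (-1.13, from -2.98 and -1.86) and Lhx6 (-1.04, from -5.09 and -4.05). It was above 0 for Izumo3 (2.86, from 2.43 and -0.43), Tspan1 (2.11, from 2.1 and -0.01), Cdc25c (1.81, from 0.49 and -1.32), Gnaq (1.8, from -0.84 and -2.64), Pard6b (1.77, from 2.68 and 0.92), Tubb2b (1.17, from -1.32 and -2.49), Slc2a3 (1.16, from 1.12 and -0.04), Gabrr1 (1.15, from 3.64 and 2.49), Fabp7 (1.13, from -4.77 and -5.9) and Tubb5 (1.04, from -1.18 and -2.22). The adjusted p in limma ran from 4.6e-05 for Gnat1 to 0.047 for Pmaip1. Among those below 0, Gnat1, Mgarp, Ptpn14, Sag, Rom1, Rp1 and Tulp1 are genes whose readings on the first-site cortex arrays rose and fell together.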

How the results depend on the processing

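Across the settings tried the number of probes called at the first site stayed within 1.5 times the main count except where only probes brighter than the array median were tested, which tests fewer probes: 1663 were then called in place of 2574, 801 in place of 1345 higher in cortex, 3521 in place of 5662 lay within 2-fold, and 44 in place of 75 differed between sites. Leaving out each first-site array in turn gave 2521 to 2611 calls, 1174 to 1256 higher in retina and 1321 to 1356 higher in cortex, 5452 to 5526 within 2-fold, and 61 to 91 between sites. With cortex replicates 1 and 5 alone, a setting with fewer arrays that was chosen after seeing the data, 30 differed between sites. Same-numbered retina and cortex arrays had deviations that correlated by -0.08 to -0.02, and differently numbered ones by -0.04 to 0.06. Whether the replicate numbers pair the arrays cannot be settled from these values. With the replicate block 2575 probes were called, 5567 lay within 2-fold and 22 differed between sites. No named gene changed direction among 5077 recomputed values: 40, from 24 genes, fell below the threshold, 17 of them at the 25th percentile floor, and 2, both of Gnaq, passed it (without cortex replicate 2, and with cortex replicates 1 and 5 alone). Of 1520 recomputed list counts 58 moved by over 1.5 times. The cause was not tested. Motif shares in the shorter window of 100 bases are lower by construction. Without a detection flag, readings near the lowest intensities cannot be told from background, and folds against them have no firm size.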
